A study of Mus musculus with 2 samples.

Results

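The class I and class II histone deacetylases were followed through single GFP-sorted retinal cells of a mouse with a cone dystrophy, with and without an injection of GSK-J4. The 10 members were listed by name (*Hdac1* to *Hdac10*), whatever their values, and 9 of them had a row among the 17774 genes of the deposited counts. *Hdac5* had none, and 8 members had a count in at least 3 cells and passed the filter that kept 15947 genes. Cells came from *Pde6c*.GFP mice on a C57BL/6 background, which carry the cpfl1 mutation of *Pde6c* and express eGFP from the *Chrnb4* promoter, so that a GFP-positive cell is a cone only as far as that promoter marks one. Retinae were either left uninjected or received 1 intravitreal injection of GSK-J4, meant to reach 10 µM in the vitreous, at postnatal day (PN) 14, and the labels give PN24, 10 days later, as the age of both libraries. In the GSK-J4-treated library, however, cells are named with the word adult. There was no sham-injected library and no mouse without the mutation. The study compared the 2 conditions to see how transcription in cones follows a block on H3K27 demethylation.

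Histone deacetylases take acetyl groups off lysines of histones and of other proteins. Class I enzymes work mainly in the nucleus, most of them inside corepressor complexes. Class IIa enzymes have little catalytic activity of their own, bind MEF2 transcription factors, and leave the nucleus when kinases phosphorylate them and 14-3-3 proteins hold them. Class IIb holds *Hdac6*, which deacetylates tubulin in the cytoplasm, and *Hdac10*, which acts on acetylated polyamines. GSK-J4 inhibits the Jumonji enzymes that demethylate H3K27, and loss of acetyl groups by deacetylase activity has been tied to photoreceptor death.

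The filter on cells kept 82 uninjected and 64 GSK-J4-treated cells, with 1113424 and 208578 counts in all. Uninjected cells had a median depth of 8118 counts (860 to 98250), and GSK-J4-treated cells one of 2335.5 (420 to 15371). With 1 library on 1 plate for each condition, the effect of a plate and that of GSK-J4 cannot be told apart, and no test was run. The plates shared 54 well names among kept cells. Intervals are at 95% and cover counting error alone, by the exact Poisson form for counts and the exact conditional form for ratios of counts. Those for shares, by Clopper-Pearson, cover the draw of cells and take each well as an independent cell. Of 11 cone markers, all 11 had counts in uninjected cells, and every uninjected cell had counts of 5 to 11 of them. In GSK-J4-treated cells *Opn1sw*, *Gngt2*, *Cngb3*, *Pde6c* and *Guca1a* were at 0, 50 of the 64 cells had no count of any cone marker, and the summed share of cone markers per cell ran from 0 to 6.74% of counts, against 0.358 to 9.81% in uninjected cells. The label of cone is thus borne out by markers in the uninjected library but not in most cells of the other, which are called GSK-J4-treated cells here. Rod markers took 0.349% and 0.0206% of all counts, Müller glia markers 0.0919% and 0.0379%, and 5 other lists at most 0.0125% in either library. The median share of mitochondrial counts per cell was 0.952% and 0.0146%. The part of these differences in any deacetylase value was not tested.

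The uninjected plate also had an internal pattern that touches every count of cells in it. Wells in the same row that lay 6 columns apart resembled each other. There were 39 such pairs after the filter, and in 38 of them the partner was the best match of the first well by correlation of scaled counts over 6783 genes (median r = 0.167 with the partner and -0.0047 with other wells). Total counts of partners followed each other (r = 0.895 on the log10 scale over the 39 pairs). On the GSK-J4 plate the partner was the best match in 2 of 22 pairs, and the totals had r = -0.040. Both correlations describe wells of 1 plate. Of 1453 genes with a count in exactly 2 uninjected cells, 8.81% had them in such a pair, where partners make up 1.17% of all pairs of cells. Whether partner wells hold material of 1 cell was not tested. For *Hdac4* and *Hdac9*, shares of uninjected cells are therefore also given with partner wells joined, which leaves 43 units.

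**Figure D1:**
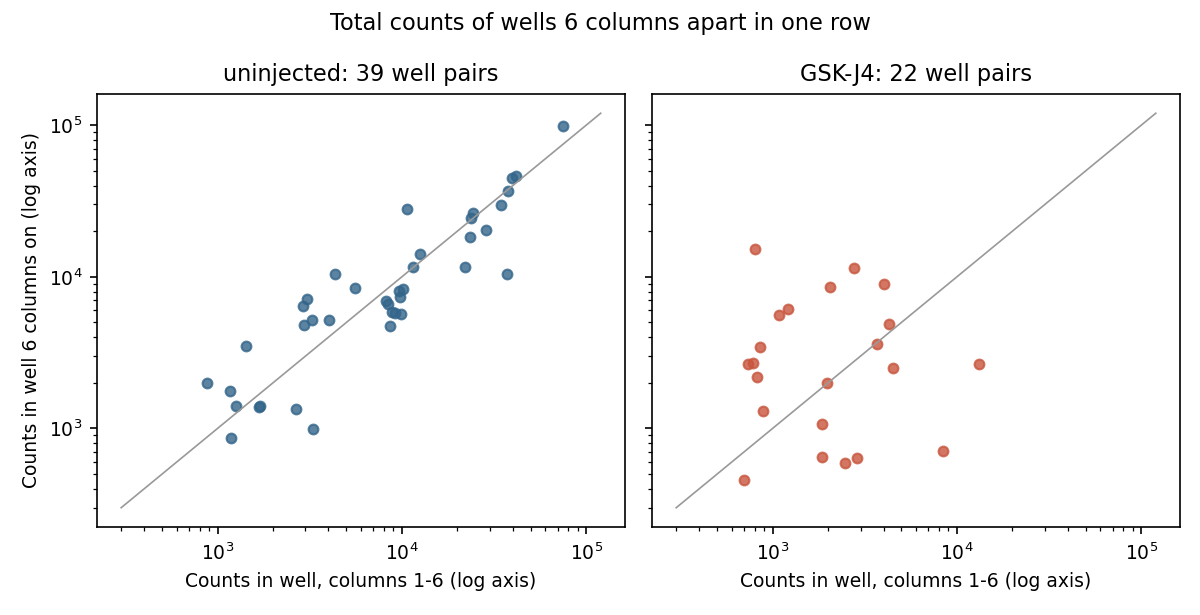
Total counts of each well of columns 1-6 (x, log axis) against the well 6 columns further in the same row (y, log axis), for 39 uninjected and 22 GSK-J4 pairs, with the line of equal totals. Uninjected pairs lie along the line (r = 0.895), while GSK-J4 pairs scatter across it (r = -0.040).

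Reference sequence is shown at transcript starts of 2 members. *Hdac4* was the most counted of the 9 members in GSK-J4-treated cells and *Hdac9* in uninjected cones. Starts rich in CG are also where H3K27 methylation is usually found. The windows are those of RefSeq on GRCm38.p6, from 250 bases before to 50 after a transcript start, 5′ to 3′, with each CG in capitals. On the minus strand the annotated genes begin at 92195699 (*Hdac4*) and 34917095 (*Hdac9*). The *Hdac4* window and the first *Hdac9* window thus lie at internal starts, and only the second *Hdac9* window lies at the annotated gene start.
*Hdac4*, chr1:92180292-92180591, minus strand: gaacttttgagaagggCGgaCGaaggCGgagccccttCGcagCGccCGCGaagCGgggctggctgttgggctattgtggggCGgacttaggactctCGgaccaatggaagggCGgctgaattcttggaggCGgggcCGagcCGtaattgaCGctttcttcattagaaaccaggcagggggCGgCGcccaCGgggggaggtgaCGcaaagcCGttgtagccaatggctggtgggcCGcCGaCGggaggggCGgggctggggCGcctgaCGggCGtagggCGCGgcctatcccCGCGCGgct
*Hdac9*, chr12:34528840-34529139, minus strand: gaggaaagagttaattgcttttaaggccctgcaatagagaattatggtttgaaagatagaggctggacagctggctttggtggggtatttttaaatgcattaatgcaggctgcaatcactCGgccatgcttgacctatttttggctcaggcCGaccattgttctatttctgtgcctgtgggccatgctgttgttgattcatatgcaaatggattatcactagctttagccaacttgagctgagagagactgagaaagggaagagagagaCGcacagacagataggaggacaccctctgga
*Hdac9*, chr12:34917046-34917345, minus strand: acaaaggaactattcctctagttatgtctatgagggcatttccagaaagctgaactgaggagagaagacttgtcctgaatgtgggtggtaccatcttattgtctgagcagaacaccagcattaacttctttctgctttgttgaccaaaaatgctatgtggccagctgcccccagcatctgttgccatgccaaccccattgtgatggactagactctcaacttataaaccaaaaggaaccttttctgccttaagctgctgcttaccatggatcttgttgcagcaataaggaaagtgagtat
The *Hdac4* window holds 32 CG, a number that 9.52% of 32851 mouse windows of this length reach. The 2 *Hdac9* windows hold 3 and 0 CG, and 76.7% of all windows have at least 3. No measurement of H3K27 methylation at these starts was used here, so the windows are a description only. Of the 10 members, 7 were matched to a window.

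Deacetylase counts were sparse. The 9 members together had 244 counts in the uninjected library, or 2.19 (1.93 to 2.48) per 10000. In the GSK-J4-treated library they had 70, or 3.36 (2.62 to 4.24) per 10000. At least 1 member was counted in 48 of 82 uninjected cells (58.5%) and 34 of 64 cells treated with GSK-J4 (53.1%). Cells with a count were deeper than those without, by medians of 11105 against 3406 counts in the uninjected library and 3144 against 1233.5 in the other. With every cell thinned to 867 counts, leaving out 1 uninjected and 14 GSK-J4-treated shallower cells, the expected shares were 16.2% of 81 and 27.9% of 50 cells. Up to 6 members were counted in 1 uninjected cell, and up to 4 in 1 GSK-J4-treated cell.

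**Figure D2:**
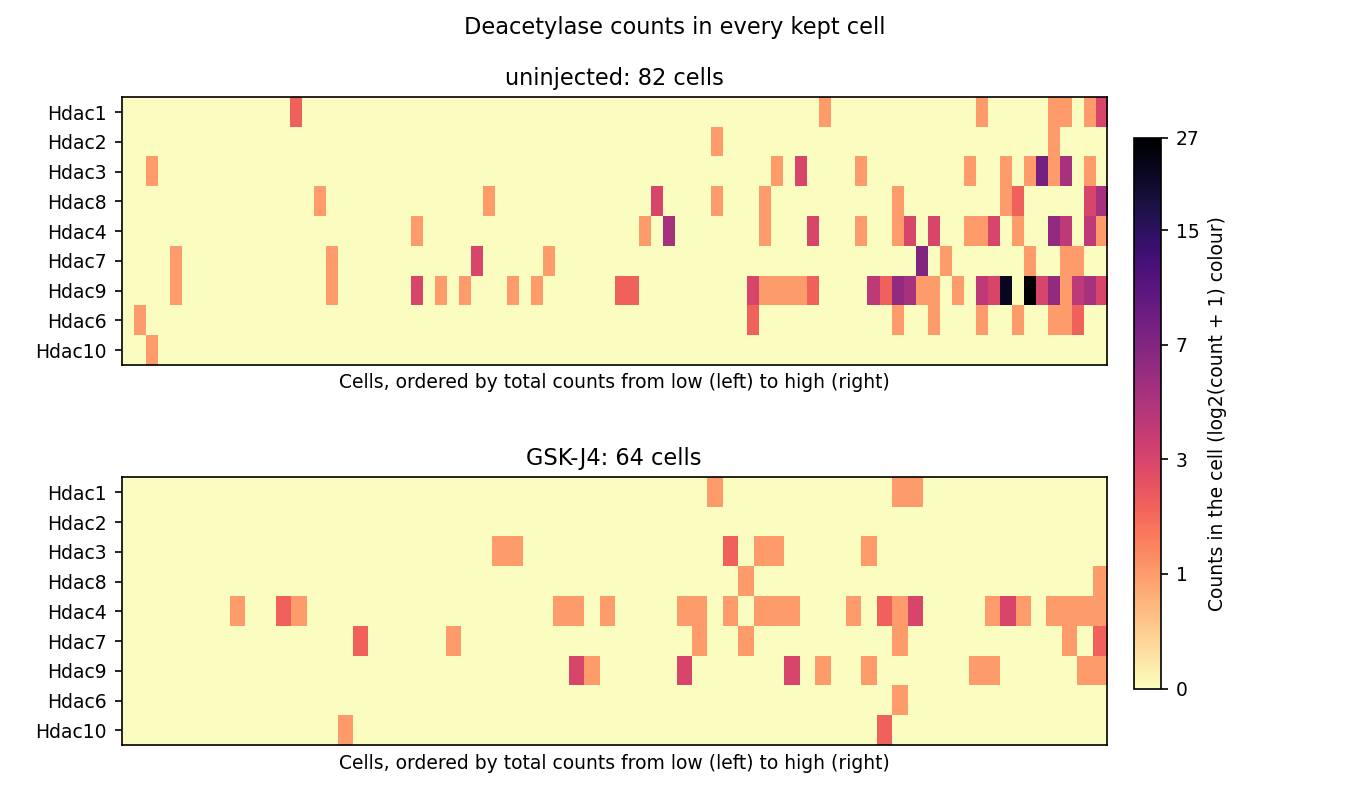
Counts of the 9 members with a row (rows) in every kept cell (columns, ordered by total counts), for 82 uninjected and 64 GSK-J4 cells, on a log2(count + 1) colour scale. Among uninjected cells the *Hdac9* row has the most coloured squares (32 cells), with its highest counts to the right, where depth is high, and among GSK-J4-treated cells the *Hdac4* row has the most (23 cells).

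Changes were measured as the log-fold, the natural log of the mean count per 10000 over cells plus 1 in GSK-J4-treated cells minus that in uninjected cones, with 0.3 as the limit of size. Of the 8 members that passed the filter, 1 lay above 0.3 (*Hdac4*) and 0 lay below -0.3. Because 1 is added to each mean, a gene with a low uninjected mean cannot fall below -0.3, even with 0 treated counts. Only *Hdac9*, with an uninjected mean of 0.831 per 10000, could do so. The other members had 0.123 to 0.282, so that 0 below was set by the formula for them. Over all genes tested, 12.6% lay above and 11.8% below the limit (24.4% in either direction), so the share of deacetylases beyond it was no larger than the background, and the median over all genes was 0.03. The log-fold of *Hdac4* stood at the percentile 98.1 of all genes.

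*Hdac4* encodes a class IIa deacetylase that is abundant in neurons and lies on chromosome 1 from 91928779 to 92195699 on the minus strand (GRCm38, GENCODE vM21). Its span overlaps 1 annotated gene on the same strand and 2 on the other, and whether counting used strand is not given in the sources used here. It had 40 (28.6 to 54.5) counts in 17 uninjected cells and 29 (19.4 to 41.6) counts in 23 GSK-J4-treated cells, although the second library held far fewer counts. Single uninjected cells had 0 to 6 counts and GSK-J4-treated cells 0 to 3, with a median of 0 in both, and 19 of the 23 GSK-J4-treated cells had a single count. Thus the ranges of single cells overlapped. Because most GSK-J4-treated cells with a count had only 1, more cells with the transcript cannot be told apart from a higher level per cell. Among cells with a count, the median level was 0.895 per 10000 (0.102 to 5.80) for the uninjected library. It was 3.29 per 10000 (0.651 to 25.6) for the GSK-J4-treated one, whose cells are shallower, so that 1 count stands for more. In the summed libraries *Hdac4* was 3.87-fold (2.31 to 6.40) higher in GSK-J4-treated cells, at 1.39 against 0.359 per 10000. The log-fold was 0.78 (0.47 to 1.08). Intervals of all log-folds scale the mean over cells by the Poisson limits of the summed count. They treat every count alike, although a count in a shallow cell weighs more in that mean, and so are approximate.

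An *Hdac4* count was found in 20.7% (12.6 to 31.1) of the uninjected cells and 35.9% (24.3 to 48.9) of those treated with GSK-J4, so that the intervals overlapped at the depth as sequenced. At 867 counts per cell the expected shares were 2.12% and 9.91%. With partner wells joined, 13 of 43 uninjected units (30.2%, 17.2 to 46.1) had a count, and 4 of these 13 had it in both wells. No uninjected unit held more than 6 of the 40 counts (15%), and no GSK-J4-treated cell more than 10.3% of the 29. The log-fold, however, weights cells equally. Its highest GSK-J4-treated values (25.6, 14.3 and 12.4 per 10000) came from 2, 1 and 1 counts in cells of 782, 698 and 806 counts. Without cells below 867 counts the log-fold was 0.55. Both sides of the plates had the difference, with 0.457 against 1.47 per 10000 in columns 1-6 and 0.265 against 1.33 in columns 7-12.

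Since cone markers also differed between the libraries, *Hdac4* was counted in GSK-J4-treated cells with and without a cone marker. The 14 cells with a cone marker held 12 *Hdac4* counts in 8 cells, or 1.73 (0.896 to 3.03) per 10000. These 14 had counts of at most 2 of the 11 cone markers, against 5 to 11 in every uninjected cell. They also held 69195 of the 208578 counts of the library, so they were deeper than the others. Whether such a count marks a cone was not tested. The 50 cells without held 17 counts in 15 cells, or 1.22 (0.710 to 1.95) per 10000. The intervals overlapped, and both rates were above the 0.359 (0.257 to 0.489) of uninjected cones. The scaling moved the value further: with median-ratio or TMM factors on the summed libraries every ratio shrank 1.78-fold or 1.79-fold, and *Hdac4* was 2.18-fold or 2.16-fold higher, with a log-fold of 0.32 under both.

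*Hdac9*, a class IIa member with long and short isoforms that also binds MEF2, lies on chromosome 12 from 34047580 to 34917095 on the minus strand. Its span overlaps 3 annotated genes on the same strand and 1 on the other. It was the most counted member in uninjected cones, with 120 (99.5 to 143) counts in 32 cells, against 16 (9.15 to 26.0) counts in 10 GSK-J4-treated cells. Single uninjected cells had 0 to 27 counts and GSK-J4-treated cells 0 to 3, with a median of 0 in both. A single pair of partner wells set the top of the uninjected range. Wells G2 and G8 held 27 and 22 counts, 40.8% of all 120 between them. With this pair the ratio of GSK-J4-treated cells to uninjected cones was 0.712 (0.394 to 1.20), and without it the ratio was 1.12.

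The share of cells with an *Hdac9* count differed at the depth as sequenced but not at 1 depth. It was 39.0% (28.4 to 50.4) for the uninjected and 15.6% (7.76 to 26.9) for the GSK-J4-treated library, with intervals that did not overlap. At 867 counts per cell the expected shares were 6.67% and 6.58%. With partner wells joined, 21 of 43 units (48.8%, 33.3 to 64.5) had a count, and 11 of these 21 had it in both wells. The log-fold was -0.04 (-0.33 to 0.28), -0.50 within columns 1-6 and 0.36 within columns 7-12, and -0.44 with median-ratio or TMM factors. *Hdac9* thus had no direction that was the same under every setting.

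*Hdac7*, the class IIa member best known from blood vessels and thymocytes, had 17 (9.90 to 27.2) counts in 9 uninjected cells and 9 (4.12 to 17.1) in 7 GSK-J4-treated cells. Per cell the highest counts were 7 and 2, with a median of 0 in both libraries. The summed ratio was 2.83 (1.11 to 6.70), and the log-fold was 0.25 (-0.11 to 0.65), below the limit. Of the 17 uninjected counts, 8 came from partner wells E3 and E9, and the ratio without them was 5.10. The log-fold, which weights cells equally, was instead 0.04 without uninjected well E3 and GSK-J4-treated well C3. Well C3 had 2 counts in a cell of 891, or 22.4 per 10000. It tied for the most counts with well D11, which had 2 in a cell of 15371 and was kept. With median-ratio factors the ratio was 1.59 and the log-fold 0.09. With only the GSK-J4-treated cells that had a cone marker the log-fold was -0.04. Class IIa as a whole had 177 and 54 counts, a ratio of 1.63 (1.18 to 2.22), which changed sides under median-ratio (0.915) and TMM factors (0.909).

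Class I members had few counts. *Hdac3*, the catalytic subunit of the NCoR complex, had 24 (15.4 to 35.7) counts in 11 uninjected cells and 7 (2.81 to 14.4) in 6 GSK-J4-treated cells, with at most 8 and 2 in a cell. Wells D6 and D12, 1 pair of partners, held 13 of its 24 uninjected counts (54.2%), and the ratio moved from 1.56 (0.567 to 3.72) to 3.14 without them. None of the 7 GSK-J4-treated counts lay in the 14 cells with a cone marker. The log-fold of *Hdac3* was 0.14 (-0.14 to 0.47), and it was -0.03 with median-ratio factors.

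*Hdac8*, a class I enzyme that acts outside the large corepressor complexes and deacetylates cohesin, had 19 (11.4 to 29.7) counts in 10 uninjected cells and 2 (0.242 to 7.22) in 2 GSK-J4-treated cells. Wells C6 and C12 held 8 of the 19. The ratio was 0.562 (0.0635 to 2.33), or 0.819 without that pair, and the log-fold was -0.09. *Hdac1*, a shared subunit of Sin3, NuRD and CoREST, had 10 (4.80 to 18.4) counts in 7 uninjected cells and 3 (0.619 to 8.77) in 3 GSK-J4-treated cells. Its summed ratio of 1.60 (0.283 to 6.22) and its log-fold of -0.02 differed in sign, since the log-fold weights cells equally. *Hdac2*, the close paralogue of *Hdac1*, had 2 counts in 2 uninjected cells and 0 in GSK-J4-treated cells, where a count of 0 has an upper limit of 0.177 per 10000, and it did not pass the filter. The 4 class I members had 55 and 12 counts, with a ratio of 1.16 (0.568 to 2.20) that spans no change.

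In class IIb, *Hdac6* had 11 (5.49 to 19.7) counts in 9 uninjected cells and 1 count in 1 GSK-J4-treated cell. The ratio was 0.485 (0.0113 to 3.34) and the log-fold -0.14 (-0.29 to 0.08), so a difference was not detectable at this depth. *Hdac10* had 1 count in 1 uninjected cell and 3 counts in 2 GSK-J4-treated cells, a ratio of 16.0 with a counting interval of 1.29 to 841. Its means over cells were 0.123 and 0.246 per 10000, as the 1 uninjected count lay in a shallow cell of 990 counts. The log-fold was 0.10 with 1 added to each mean, and 0.44 with 0.1 added. The class had 12 and 4 counts and a ratio of 1.78 (0.418 to 5.87).

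**Figure D3:**
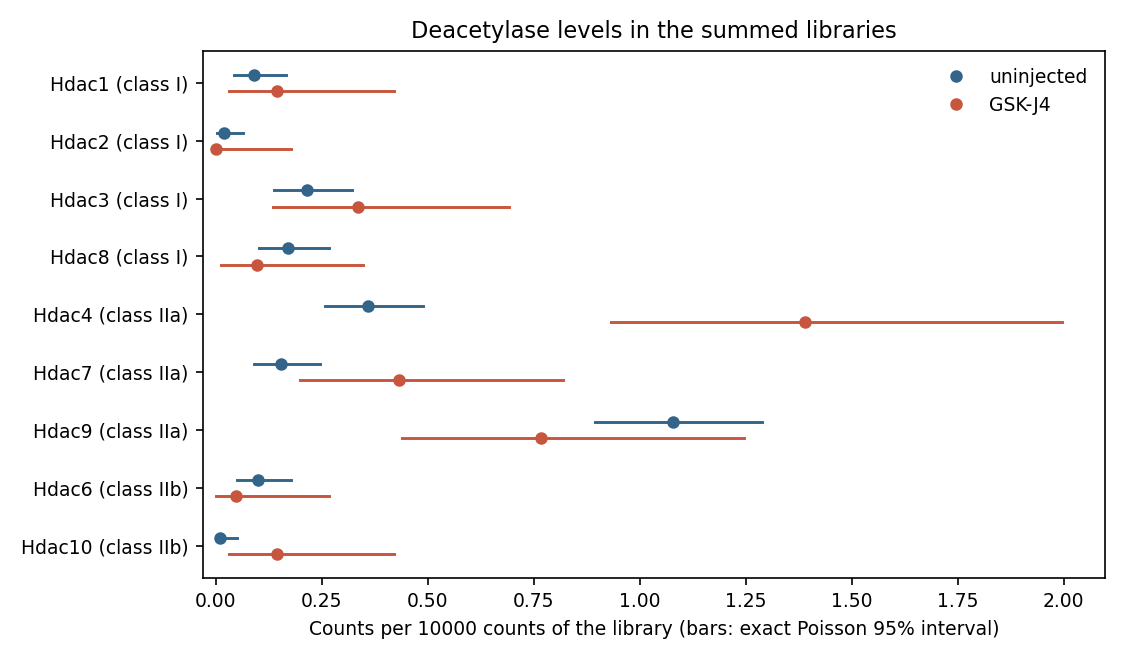
Counts per 10000 counts of the library (x) for the 9 members with a row (y), in uninjected and GSK-J4-treated cells, with exact Poisson 95% intervals as bars. *Hdac4* is the member whose intervals stand apart (up to 0.489 in uninjected, from 0.931 in GSK-J4-treated cells), and *Hdac9* has the highest uninjected level (1.08).

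Per kilobase of annotated exon, the order of levels differed between the libraries. This scale assumes that counts grow with length, which tags from both transcript ends may not do. In uninjected cones *Hdac9* led at 0.0735 (0.0609 to 0.0879) counts per 10000 per kilobase, followed by *Hdac3* at 0.0532, *Hdac8* at 0.0353, *Hdac1* at 0.0261, *Hdac4* at 0.0227 and *Hdac7* at 0.0226. The interval of *Hdac3* (0.0341 to 0.0791) overlapped that of *Hdac9*, and no neighbours in this order were apart by their intervals. *Hdac6* (0.0170), *Hdac2* (0.0040) and *Hdac10* (0.0027) were last. In GSK-J4-treated cells *Hdac4* led at 0.0879 (0.0589 to 0.126), next to *Hdac3* at 0.0828 (0.0333 to 0.171), *Hdac7* at 0.0639 and *Hdac9* at 0.0523 (0.0299 to 0.0849), all with overlapping intervals. *Hdac4* thus stood in the fifth place in uninjected and in the first in GSK-J4-treated cells.

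**Figure D4:**
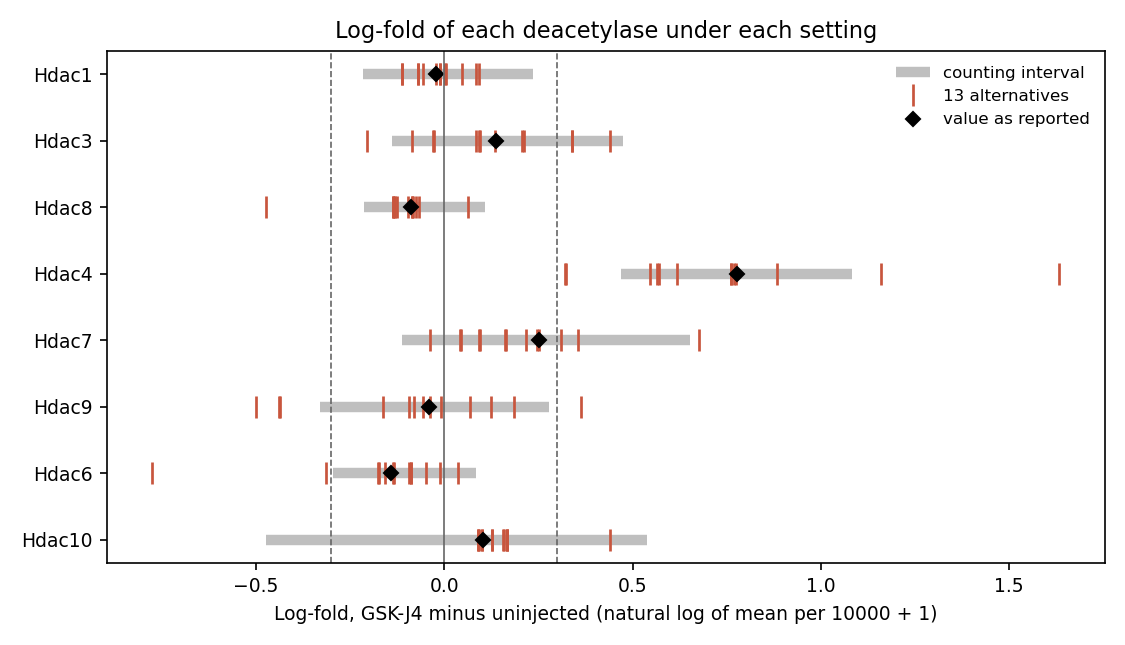
Log-fold (x, natural log of mean per 10000 plus 1, GSK-J4 minus uninjected) of the 8 members that passed the filter, as reported (diamonds), with counting intervals (grey bars) and under 13 alternatives (ticks), with dashed lines at 0.3 and -0.3. All *Hdac4* values lie above 0.3 (0.32 to 1.63 over the alternatives), while those of *Hdac9* span -0.50 to 0.36.

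The proteins that deacetylases work with were read from lists set by name. From each list, the genes with the highest and the lowest log-folds among those counted in at least 10% of the kept cells of 1 library are named. Counts of genes beyond the limit in a list stand beside the 12.6% above and 11.8% below it over all genes. As with the members, many genes of these lists had uninjected means too low to fall below -0.3. Few genes below the limit, or 0, is therefore set in part by the formula. The other deacetylases, sirtuins of class III and *Hdac11* of class IV, had 7 of 8 genes with a row, 2 above and 1 below the limit, with a median log-fold of 0.09 beside 0.03 over all genes. *Sirt1*, a nuclear NAD-dependent deacetylase, had 28 (18.6 to 40.5) counts in both libraries despite their unequal depth, a log-fold of 0.59. *Hdac11* had 8 and 13 counts, a log-fold of 0.38. *Sirt2*, which deacetylates tubulin as *Hdac6* does, had 135 (113 to 160) and 8 (3.45 to 15.8) counts, a log-fold of -0.35, and *Sirt3*, the mitochondrial sirtuin, had 30 and 3 (log-fold -0.15). The *Sirt2* counts lay in 48 uninjected cells and 2 GSK-J4-treated cells. *Sirt1* stayed above the limit in all 11 alternatives run on the lists, and *Sirt2* turned to 0.09 within columns 1-6.

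Among the corepressor scaffolds, large differences ran in both directions. In the Sin3 complex 12 genes passed the filter, 2 above and 1 below the limit (median 0.04). *Sin3a*, its scaffold, had 5 (1.62 to 11.7) counts in 5 uninjected cells and 163 (139 to 190.0) counts in 53 GSK-J4-treated cells, a log-fold of 2.13 that stayed between 1.45 and 4.14 in the 11 alternatives. Its paralogue *Sin3b* had 20 (12.2 to 30.9) counts and 0 (upper limit 3.69), a difference that these intervals do not set apart after scaling to the totals. *Sap30l* had 81 counts and 1 (log-fold -0.47) and *Arid4b* 6 and 8 (0.16). The other gene above the limit, *Rbbp4*, named after its value was seen, had 87 and 5 counts with a log-fold of 0.31, which was -0.55 with median-ratio factors.

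The NCoR complex, in which *Hdac3* acts and to which class IIa enzymes dock, had 2 genes below the limit. *Ncor1* had 163 (139 to 190.0) counts in 30 uninjected cells and 0 in GSK-J4-treated cells, at least 10.2-fold lower when 0 is set to a floor of 3 counts over the library. Such folds leave out the counting error of the uninjected count and are no 95% limits. *Gps2*, a small subunit of the complex, had 136 counts and 1 (log-fold -1.29). In the NuRD complex 1 of 12 genes was above (*Rbbp4* again) and 2 were below the limit (median 0.05). These were the GATA-type subunit *Gatad2b* (63 and 8 counts, log-fold -0.66) and *Mbd3* (113 counts and 1, log-fold -0.50), and *Mta2* was at 0.06. *Gatad2b* turned to 0.12 within columns 1-6, and *Mbd3* to 0.05 within columns 7-12. In CoREST, 0 of 6 genes were above and 1, *Hmg20b*, was below the limit (50 and 2 counts, log-fold -0.36), with *Rcor3* at -0.10 (median 0.04).

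Partners that decide where class IIa enzymes reside were mostly within the limit or lower. Of 11 MEF2 and 14-3-3 genes, 0 were above and 3 below the limit (median -0.05). With median-ratio factors 6 were below (median -0.36), and with only the GSK-J4-treated cells that had a cone marker 3 were above and 3 below. *Ywhae*, a 14-3-3 protein, had 380 (343 to 420.2) counts in 50 uninjected cells and 0 in GSK-J4-treated cells, at least 23.7-fold lower, and *Ywhaz* had 187 and 9 counts (log-fold -1.09). The other was *Ywhah*, named after its value was seen (56 and 2 counts, log-fold -0.34). Of the MEF2 genes, *Mef2a* (114 and 18 counts) and *Mef2c* (45 and 10 counts), had log-folds of 0.05 and 0.29, and both were negative (-0.36 and -0.12) with median-ratio factors. Of 13 kinases that phosphorylate class IIa enzymes, 1 was above and 1 below the limit (median 0.04). *Camk2d* had 106 and 11 counts (log-fold -0.43), *Camk2g* 57 and 4 (-0.22), *Prkd3* 24 and 10 (0.29) and *Sik2* 13 and 4 (0.14), while *Camk1d*, named after its value was seen, had 2 and 9 (0.36). Within columns 1-6 *Camk2d* turned to 0.04.

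Of 6 genes for substrates of *Hdac6*, 3 were below and 1 above the limit (median -0.39), where 11.8% and 12.6% of all genes were. *Tuba1a* had 99 counts and 0, at least 6.18-fold lower, and *Hsp90aa1* had 130 counts and 0, at least 8.12-fold lower. *Tuba1b*, named after its value was seen, had 128 counts and 0, at least 7.99-fold lower. *Cttn* had 22 counts and 1 (log-fold -0.13). *Hsp90ab1*, the constitutive partner of *Hsp90aa1*, was the exception with 274 (243 to 308) and 171 (146 to 199) counts, a log-fold of 0.53, though -0.15 within columns 7-12. Tubulin and 14-3-3 genes are near-identical copies in part, so that reads shared between them could be split or lost in either library. Whether this had a part in any of these counts was not tested.

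The enzymes that oppose deacetylases, the histone acetyltransferases, had 5 of 9 genes above the limit and 0 below, beside 12.6% and 11.8% of all genes, with a median log-fold of 0.33. With uninjected means of 0.00579 to 0.273 per 10000, *Kat2b*, *Kat6a*, *Kat7*, *Kat8* and *Hat1* could not fall below it, so 0 below was set by the formula for these. *Crebbp*, the CBP coactivator, had 38 and 37 counts and a log-fold of 0.44, which stayed positive in the 11 alternatives. *Kat6b* had 116 and 15 counts (log-fold 0.40) and *Kat2a* 161 and 34 (log-fold 0.33), and both kept their sign in only 5 of the 11. *Ep300* and *Kat8*, named after their values were seen, had 56 and 34 and 3 and 7 counts, and *Hat1* had 49 and 5 counts (log-fold -0.02). The count of this list moved with the settings. With median-ratio factors 1 gene was above and 1 below the limit (4.17% and 16.6% of all genes). With counts summed over each library 2 were above and 0 below (9.92% and 11.1% of all genes). Without cells below 867 counts 3 were above and 1 below (12.7% and 11.9%). With only the GSK-J4-treated cells that had a cone marker, 1 was above and 0 below (14.7% and 14% of all genes). Under median-ratio factors the counts above and below were also 1 and 2 for the other deacetylases, 1 and 3 for Sin3, 0 and 3 for NuRD and 0 and 2 for the kinases, of which 4 were above and 1 below among cells with a cone marker.

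**Figure D5:**
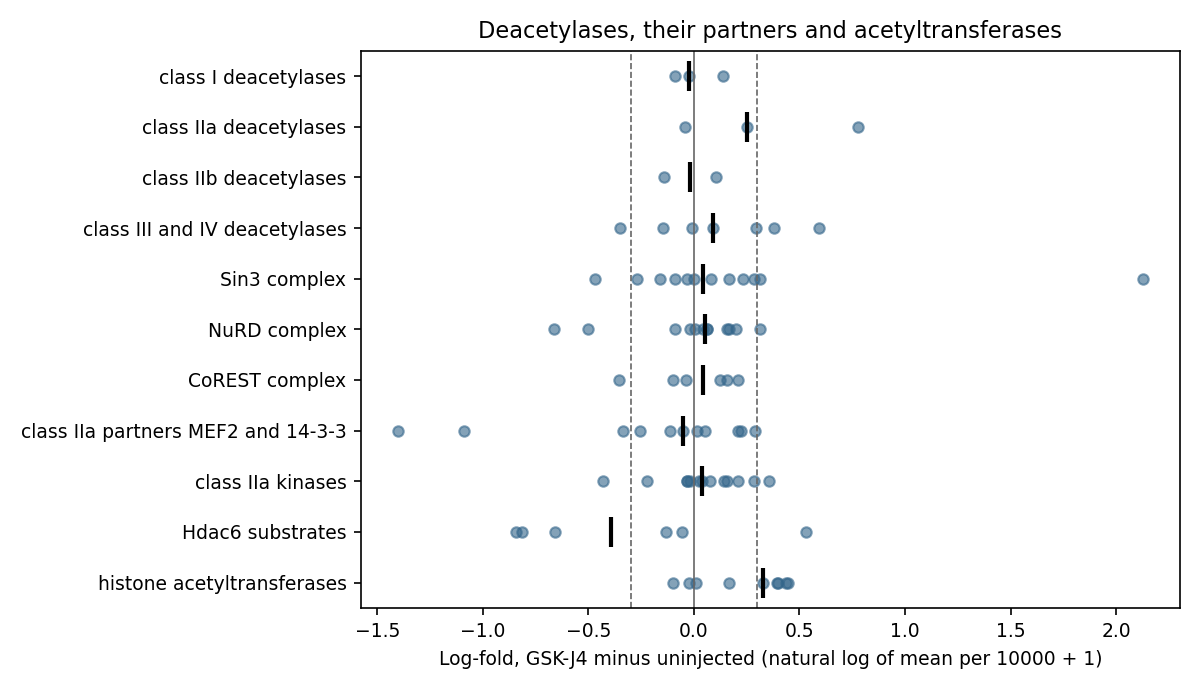
Log-fold (x, as above) of each gene that passed the filter (points) in 11 lists (y), with the median of the list as a black bar and dashed lines at 0.3 and -0.3. Medians lie between -0.39 (*Hdac6* substrates) and 0.33 (histone acetyltransferases), and *Sin3a* is the far point at 2.13.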

How the data were processed

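Single GFP-positive cells were sorted into 96-well plates and sequenced by an adapted SMARTseq2 and MARS-seq method. The authors assigned reads to wells, aligned them in the CLC Genomics Workbench, removed PCR duplicates by UMI and position, and counted them per gene with featureCounts. They deposited raw counts, whole numbers without normalization, as the sum of 3' and 5' tags. The build is written as GRCh38, a human build number, in the submitters' processing notes, and coordinates here are from GRCm38. Genes were kept if counted in 3 cells or more, cells if they had 200 genes or more and no more than 5% mitochondrial counts, and cells were scaled to 10000 counts (Python 3.11.15, pandas 2.3.3, numpy 2.4.6, scipy 1.17.1). No doublet caller and no batch correction were run. TMM factors came from edgeR 4.0.16 (R 4.3.3), and no count test was run. Depth per cell is given in the text above, and its precision is that of the counting intervals. The calculation was tested on simulated data. Members and lists were chosen with earlier results of these data known. All 10 members were named, with the 2 highest and 2 lowest log-folds of each list among genes counted in at least 10% of the kept cells of 1 of the libraries, and the 3 genes most like the member counted in most uninjected cells. Alternatives were other filters, scalings, depths, plate sides and left-out cells. Joining partner wells and leaving out a pair were added after the data were seen. Some genes named by this rule, and 1 list in part, are not reported here.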

Additional observations from a re-analysis of the deposited data

How the results depend on the processing

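Each log-fold was computed under 13 alternatives. Over the 8 members 91 values lay within the counting interval of the reported one and 13 lay outside it. Values within it could still pass the limit or change sign. *Hdac3*, for example, was at 0.44 with a pseudocount of 0.1 and at -0.03 with median-ratio factors. *Hdac4* was above 0.3 in all 13. With a pseudocount of 0.1, *Hdac4* was at 1.63, *Hdac7* at 0.68, *Hdac8* at -0.47 and *Hdac6* at -0.78, 4 members were above and 2 below the limit, and over all genes 44.1% were above, 28.2% below and the median was 0.18. With median-ratio or TMM factors *Hdac4* was at 0.32 and *Hdac9* at -0.44, 1 member was below the limit (16.6% of all genes under both), the class IIa ratio reversed to 0.915 and 0.909, and 79.9% and 80.2% of all genes beyond the limit were lower, against 48.4% as reported. With GSK-J4-treated cells that had a cone marker *Hdac4* was at 1.16 and *Hdac3* at -0.20. Within columns 1-6 *Hdac9* was at -0.50 and *Hdac6* at -0.31, with 3 members above and 2 below the limit (16.3% and 13% of all genes), and within columns 7-12 *Hdac9* was at 0.36, with 2 above (14.4% of all genes). Leaving out cells below 867 counts (none thinned) and a minimum of 500 genes each gave 2 above (12.7% and 12.1% of all genes). The cause was not tested in any of these.

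At 867 counts per cell the shares of uninjected cells were 1.07% for *Hdac1*, 1.95% for *Hdac3*, 1.36% for *Hdac8*, 2.12% for *Hdac4*, 2.35% for *Hdac7*, 6.67% for *Hdac9* and 1.68% for *Hdac6*, and those of GSK-J4-treated cells 9.91% for *Hdac4* and 6.58% for *Hdac9*, fewer counts per cell lowering every share by construction. With at least 500 genes the uninjected share of *Hdac10* was 0. No paired analysis was possible because each condition had 1 library. Depth limits what can be said of the members other than *Hdac4* and *Hdac9*, since none of these had more than 9 counts in GSK-J4-treated cells.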

Other observations

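Over the 82 uninjected wells, the genes whose counts per 10000 ranked most like those of *Hdac9* were *Ranbp17* (Spearman's rho = 0.64), *Polr2e* (0.60) and *Ift140* (0.57), among 2642 genes counted in at least 25% of the wells. The wells share 1 library, partner wells resemble each other, and the scaled *Hdac9* level itself ranked with depth (rho = 0.41), so these values are a description of this plate.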
